A study of Daphnia magna with 24 samples.

Results

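The set described here holds 155 array features of the water flea Daphnia magna that stood away from the laboratory control in the farthest downstream water while their means at the mine drainage entry and at the first downstream site stayed near it. The members were chosen by their measured values. Each of the 24 arrays was centred on its median, the 2 dye-swap arrays of an exposure were averaged, and 7388 of the 7680 features had 2 or more measured exposures at each site. A member had all its measured downstream 2 exposures of one sign, a downstream 2 mean of size 0.5 or more, and entry and downstream 1 means both of size under 0.3 on the log2 scale. By this rule 3051 features had downstream 2 exposures of one sign, 937 of those reached the size limit, and 155 also kept within both other limits, which was 16.5% of the 937 and 2.10% of the features tested. Of the members, 144 were positive and 11 negative at downstream 2. The downstream 2, entry and downstream 1 values that chose the members are given below as description. The upstream water and downstream 2 exposures held out of the selection were not used by the rule. The dye effect was no term of the rule either, but it comes in part from the arrays whose averages chose the members.

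Water came from 4 sites at Greenhorn Mine, California: upstream of the mine, the mine drainage entry, downstream 1 and downstream 2. Per the labels the sites carried different amounts of copper, without values in the sources used here. Genetically homogeneous adult female daphnids of 14 to 16 days, from 1 commercial source, spent 24 h at 23.5 °C in field water, and the control animals were unexposed daphnids in COMBO, a defined freshwater culture medium. Each site had 3 exposures, each a pool of 10 to 15 whole animals, and each exposure was hybridised against control RNA on 2 arrays with the dyes exchanged. The exposures of all sites are thus set against the same kind of control, and no source used here says whether they shared control animals or RNA. P-values over exposures measure the spread between these pools, which may be technical. In RNA of whole animals, fewer cells of a type and less RNA per cell cannot be told apart.

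Daphnia magna is a small planktonic crustacean that filters its food from the water and is a standard test animal for water quality. Copper is an essential metal, a cofactor of respiratory and antioxidant enzymes, but in excess it disturbs sodium uptake across the gills and favours oxidative stress, and arthropods bind it with metallothioneins. A cDNA array of this kind compares RNA of exposed and control animals on the same spots, and exchanging the dyes between 2 arrays separates a difference between the animals from a difference between the dyes. Changes that a water sample brings about can come from the metal or from any other property of the water, so a difference from COMBO is a difference between whole waters.

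The deposited table names features by array position code and carries no gene names or sequences. None of the codes (0 of 7680) matched the RefSeq gene table, so features are given by their codes and no role is assigned to any. Arrays of one exposure with opposite dyes correlated positively across features (r from 0.149 to 0.772 over 12 exposures), so the ratios ran the same way on both arrays of an exposure. These r values do not show that the direction was the same in different exposures, which is taken to be so. The order of the channels makes exposed over control the likely direction, but neither the direction nor the log base is stated. The base is taken as 2, and ratios are called positive or negative. Each array gave between 7015 and 7472 values.

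The 144 positive members had a median downstream 2 mean of 0.76, with a range from 0.50 to 1.98, and the 11 negative members had a median of -0.58, with a range from -1.0 to -0.50. The rule fixed these signs and sizes. Within downstream 2 the 3 exposures were unequal. The medians over the positive members were 1.06 in exposure 1, 0.88 in exposure 2 and 0.30 in exposure 3, and exposure 3 was the smallest in 106 of the 123 positive members measured in all 3. Every measured downstream 2 exposure reached 0.5 in size in 24 of the 144 positive and 2 of the 11 negative members. In 19 of 134 positive members exposure 3 was of size under 0.1. The set therefore rested mainly on exposures 1 and 2 of that site.

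Small means at the entry and downstream 1 did not always come from small exposures. Of the 144 positive members, 61 had at least 1 entry exposure of size 0.5 or more and 49 had such an exposure at downstream 1. In 11 positive and 2 negative members every entry and downstream 1 exposure was under 0.3 in size. The medians over the positive members at the entry were 0.03, 0.14 and -0.26 in exposures 1 to 3, and at downstream 1 they were 0.24, -0.00469 and -0.05. Entry exposure 3 was the most spread of these, with an interquartile range from -0.66 to 0.11.

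**Figure D1:**
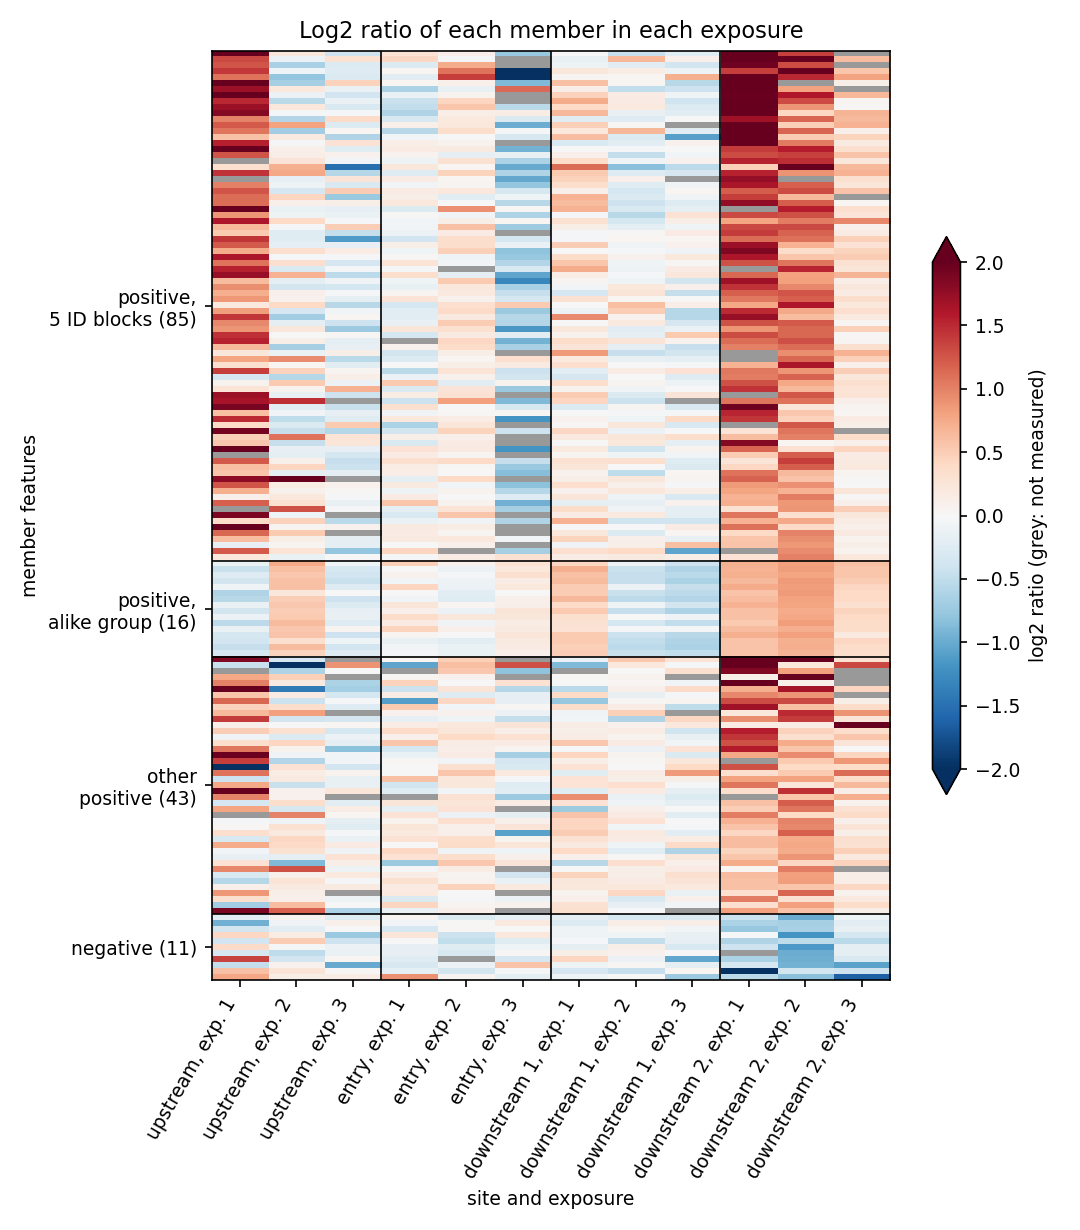
Log2 ratio (colour, cut at 2 in either direction) of each of the 155 members (rows) in each of the 12 exposures (columns, grouped by site, "exp." for exposure), with unmeasured values in grey. Positive members are ordered by downstream 2 mean within 3 groups described in the text, and many of the 85 in the first group are as deeply coloured in upstream exposure 1 as in downstream 2.

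The upstream water was no part of the rule, and upstream means of the positive members lay away from 0 more often than those of all features. Their upstream exposures also spread more widely, with a median SD of 0.61 beside 0.26 over all features. Deviations of exposure 1 from the site means correlated between upstream and downstream 2 (r = 0.434 over all features). The upstream values were thus not independent of those that chose the members. The upstream mean was above 0 in 114 of the 144 positive members, with a median of 0.20, beside a median of -0.01 over all features tested. It reached 0.3 in size in 55 positive members (38.2%) and 0.5 in 35 (24.3%), beside 17.0% and 6.73% of all tested features. The excess lay in 1 exposure. The medians over the positive members were 0.79 in upstream exposure 1, 0.11 in exposure 2 and -0.15 in exposure 3. In exposure 1 the value was 0.5 or more in 88 of the 138 positive members measured. Only 22 of the 144 were positive in every measured upstream exposure. Among the 11 negative members, 7 had an upstream mean below 0, none reached 0.5 in size, and the median was -0.10. The name "changed at downstream 2 alone" therefore held for the entry and downstream 1 means, where the rule made it so, and not for the upstream water in 60 of the 155 members by the same limit of 0.3, of which 55 were positive and 5 negative at downstream 2. At a limit of 0.5 it was 35 members, all positive.

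No upstream mean of a member passed the test. In limma's moderated test with Benjamini-Hochberg adjustment over all 7388 features, 0 members and 0% of all features had an adjusted p under 0.05. At an unadjusted p under 0.05 there were 12 members (7.74%), close to the 6.50% among all features. The precision was low. The 95% confidence interval of an upstream mean had a median half-width of 0.61 in the members and of 0.30 over all features.

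The member with the lowest upstream p was A5P3, which had only 2 upstream exposures. Its upstream values were 1.79 and 2.47, a mean of 2.13 ± 0.48 (SD, n = 2), with an adjusted p of 0.463 in limma, the lowest of all features. Its downstream 2 values were 1.19, 0.58 and 0.02, so its 2 upstream values were above all 3 downstream 2 values. P1BA6 followed, with upstream values of 0.48, 1.08 and 0.28 and downstream 2 values of 0.61, 1.01 and 0.37, groups that overlapped. P2DC7 had 1.15 and 0.52 upstream, where 1 exposure was not measured. These 3 features were members because of the entry and downstream 1 limits, and their upstream means of 2.13, 0.61 and 0.83 compare with downstream 2 means of 0.59, 0.66 and 0.52.

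The lowest upstream p among members with negative upstream means belonged to A3H8, P13DB1 and P3BB3, and none passed the test (adjusted p of 0.768, 0.780 and 0.786 in limma). A3H8 had -0.33, -0.51 and -0.14 upstream and -0.99 and -0.18 in its 2 downstream 2 exposures. P13DB1 had -0.48, 0.09 and -1.01 upstream and -0.35, -0.95 and -1.07 at downstream 2. In both the signs were mostly shared by the sites and the values overlapped. P3BB3 was positive at downstream 2, with 1.28, 0.41 and 0.36, and its upstream mean of -0.76 came from exposure 1 at -2.19, beside 0.29 and -0.39 in exposures 2 and 3.

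The largest positive downstream 2 mean among members measured in all 3 exposures was that of A7N22. Its downstream 2 values were 2.5, 2.35 and 0.61, a mean of 1.82 ± 1.05 (SD, n = 3). Its upstream values were 1.33, -0.11 and 0.31, its 2 measured entry values 0.42 and -0.04, and its downstream 1 values -0.15, 0.67 and 0.10. Exposures 1 and 2 of downstream 2 lay above all others, while exposure 3 lay below upstream exposure 1 and downstream 1 exposure 2. A7O19 had 1.38, 2.82 and 0.55 at downstream 2 and 1.42, -0.09 and -0.27 upstream. Its entry mean of -0.30, just inside the limit, was the average of 0.03, 1.09 and -2.02. A7O15 showed the same kind of entry values, -0.23, 1.38 and -2.0, with 2.08, 1.51 and 0.81 at downstream 2. In both, entry exposures as large as those of downstream 2 cancelled in the mean.

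A6P4 had downstream 2 values of 2.25, 2.08 and 0.30 and upstream values of 1.85 and -0.33. A5M1 had 1.97, 1.60 and 0.66 at downstream 2, and its upstream exposure 1, at 2.18, was higher than all of them. A5N3 and A5L15 had downstream 2 means of 1.35 and 1.27, with exposure 3 at 0.05 and 0.03. Without exposure 1 the means of A5N3 and A5L15 were 0.68 and 0.46, so both rested mostly on that exposure. A5C9 had another pattern, with 2.54, 0.22 and 1.34 at downstream 2, and -0.45, -2.15 and 0.90 upstream. Its means were 1.36 ± 1.16 (SD, n = 3) at downstream 2 and -0.57 ± 1.53 (SD, n = 3) upstream, so its exposures scattered widely at both sites. Of these 8 members with the largest means, A7N22 alone passed the test against the control (adjusted p = 0.0238 in limma), and the other 7 had adjusted p between 0.104 and 0.251.

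In the test of the downstream 2 mean against the control, which the rule had used, 23 members passed at an adjusted p under 0.05 in limma (14.8%), 21 positive and 2 negative, beside 6.66% of all 7388 features, and nothing is read from that count. Without downstream 2 exposure 3, 42 members passed (27.1%, beside 6.04% of all features). Without exposure 1, 3 members passed (1.94%, beside 2.13%), and without exposure 2, 2 did (1.29%, beside 3.55%). With the 3 downstream 2 exposures fitted on their own 0 members and 0 of all features passed in limma, and 102 members (65.8%) and 14.5% of all features reached an unadjusted p under 0.05. The lowest p did not belong to the largest means. P11CH11 had 0.58, 0.56 and 0.42, a mean of 0.52 ± 0.09 (SD, n = 3), just above the size limit, with an adjusted p of 0.00179 in limma. Its other values were positive in every exposure, from 0.10 to 0.18 upstream, 0.17 to 0.46 at the entry and 0.20 to 0.21 at downstream 1, so it differed from the other sites by less than its own mean.

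P1BG4 had 1.31, 1.37 and 0.58 at downstream 2 (adjusted p = 0.0210 in limma), and its upstream exposure 1 was 1.25 while the other 2 upstream exposures were 0.14 and 0.08. P8DG2 had 0.80, 0.80 and 0.37 (adjusted p = 0.0220 in limma), beside -0.41, 0.19 and -0.15 upstream and 0.58, 0.22 and -0.04 at the entry. In P8DG2 downstream 2 and upstream did not overlap, and entry exposure 1 lay within the downstream 2 values.

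The negative members were few and smaller. P13BH10 had the largest mean, from -0.55, -0.83 and -1.63 at downstream 2, a mean of -1.0 ± 0.56 (SD, n = 3; adjusted p = 0.0498 in limma). Its upstream values were 0.77, 0.12 and 0.15, all positive, its entry values 0.92, 0.06 and -0.20, and its downstream 1 exposure 3 was -0.73. A6I8 had -1.98, -0.37 and -0.42 at downstream 2 and 0.59, 0.26 and 0.03 upstream, so its mean of -0.92 rested on exposure 1. In both members downstream 2 and upstream lay on opposite sides of 0.

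A1I4 was the other negative member past the threshold, with -0.76, -0.65 and -0.14 (adjusted p = 0.0345 in limma) beside -0.36, -0.23 and -0.00469 upstream. P4CB11 had the narrowest downstream 2 values of the negative members named here, -0.60, -0.50 and -0.54, but its nearest other values, both from entry and downstream 1, were -0.48. A2E6, A3A2, P11AD8 and P11DA10 had downstream 2 means of -0.64, -0.58, -0.53 and -0.50. In P11AD8 and P11DA10 exposure 2 was the farthest from 0, at -1.19 and -0.99, and another exposure was near 0, at -0.04 and -0.09.

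Setting downstream 2 directly against the other sites gave no member that passed. Since the rule had chosen large downstream 2 and small entry and downstream 1 means, these differences are description. Against upstream, the median difference of the positive members was 0.59 and that of the negative members -0.45. In limma 0 members and 1.31% of all features had an adjusted p under 0.05, and 34 members (21.9%) and 11% of all features had an unadjusted p under 0.05. With a replicate block for the exposure number over all 12 exposures, 1 member passed (0.645%, beside 1.35% of all features). This was P13BH10, with a difference of -1.35 ± 0.20 (SE) and an adjusted p of 0.0293 in limma. It had not passed without the block, where its adjusted p was 0.128, and with the block in a fit of upstream and downstream 2 alone 0 members and 0 of all features passed (61 members at an unadjusted p under 0.05, beside 959 of all features).

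Against the entry 0 members and 0% of all features passed in limma, and 50 members (32.3%) and 3.42% of all features had an unadjusted p under 0.05. Against downstream 1 the numbers were 0 members and 0% of all features, with 53 members (34.2%) and 3.55% of all features at an unadjusted p under 0.05. The 95% confidence interval of a difference between sites had a median half-width of 0.84 in the members, wider than the median differences of 0.80 and 0.74 of the positive members against the entry and downstream 1.

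The groups rarely separated completely. Every downstream 2 exposure lay beyond every upstream exposure, in the member's direction, in 23 members (14.8%), beside 12.4% of all features. It lay beyond every exposure of all 3 other sites in 6 members (3.87%), beside 0.947% of all features, a comparison that the rule favours. These were P1DB3, A2G20, A5O17, A5P16, P12BB11 and the negative P4CB11, named after their values were seen. P1DB3 had 0.95 and 0.88 in its 2 measured downstream 2 exposures, and its highest other value was 0.56, in upstream exposure 1. A5P16 was measured in all 12 exposures, with 1.02, 1.18 and 0.22 at downstream 2 and a highest other value of 0.14. The remaining margins were small in A5O17 (1.31 against 1.25) and P12BB11 (0.44 against 0.42).

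Members were not spread evenly over the position codes. The codes fall into 66 blocks by their leading letter and number together with, for codes starting with A, whether the row letter was A to H or I to P and, for codes starting with P, the first letter. No source used here says what the codes stand for, and the division of the A codes by rows was chosen after the values were seen. In 5 blocks there were 8 or more members, in 1 block (A6 rows I to P) 7, in 38 blocks 1 to 4 and in 22 blocks 0. The 5 blocks were A5 rows I to P with 32 members of 173 tested features, A7 rows I to P with 22 of 185, P1B with 14 of 94, P2B with 9 of 96 and P2D with 8 of 96. They held 85 members (54.8%), all positive, and 8.72% of the tested features. Inside them 13.2% of features were members and outside them 1.04%, which left 59 positive and 11 negative members outside.

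In A5 rows I to P the non-members stood nearly as high as the members. The median downstream 2 mean was 0.86 over the 32 members and 0.79 over the non-members. The medians by exposure over the non-members were 1.30, 0.99 and 0.04 at downstream 2, 1.16 in upstream exposure 1 and -1.04 in entry exposure 3, beside 1.39, 1.13, 0.23, 1.5 and -0.65 in the members of the block. The non-members of that block thus had medians of the same sign as the members in each of these exposures. In rows A to H of A5 the medians by row ran from -0.03 to 0.03 at downstream 2, and in rows I to P from 0.30 to 1.20. In the other 4 blocks the non-members were nearer 0, with median downstream 2 means of 0.07 in A7 rows I to P, 0.15 in P1B, 0.13 in P2B and 0.10 in P2D.

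**Figure D2:**
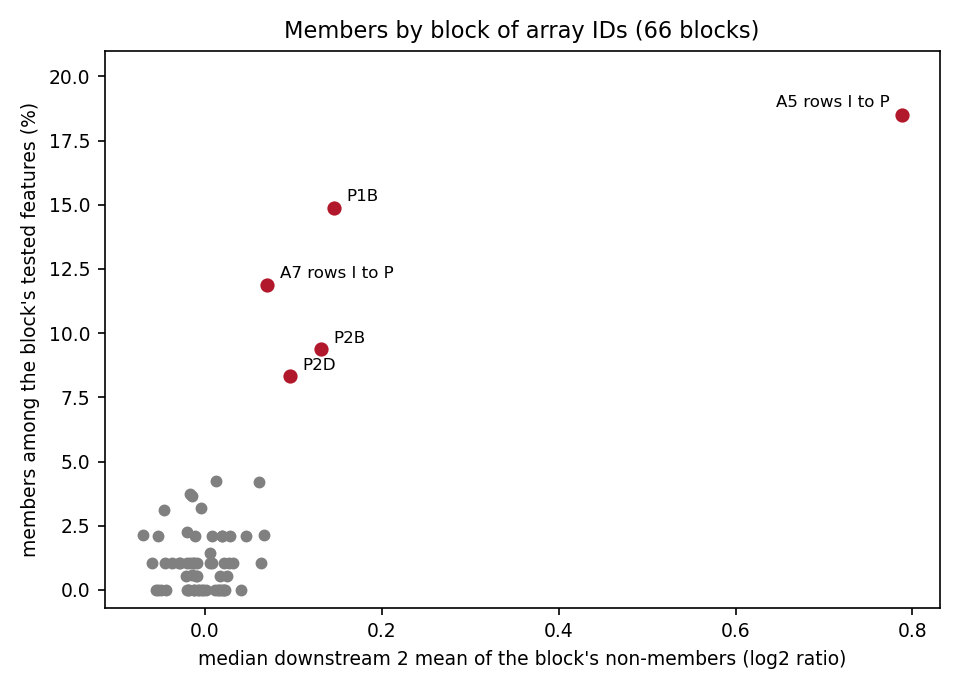
Share of the tested features of each of the 66 blocks of position codes that were members (vertical axis, %) against the median downstream 2 log2 ratio of the block's non-members (horizontal axis). The 5 blocks with 8 or more members are red and named, and A5 rows I to P stands apart with a non-member median of 0.79.

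Missing values and the dye effect were also read for the members of these blocks. Of the 24 arrays, members of the 5 blocks lacked 3.73 on average and members outside 2.56, beside 0.833 in the tested non-members, and 8 of the 85 (9.41%) were complete, beside 24 of 70 (34.3%) and 69.7% of the non-members. As a result 26.6% of the downstream 2 exposure values of members in the 5 blocks came from 1 array, beside 14.1% for the positive members outside and 5.71% for the non-members. Missing values did not follow the 5 blocks one by one. Over all tested features of a block the average was 5.13 arrays in A5 rows I to P and 2.51 in A7 rows I to P. It was 1.61 in P1B, 1.27 in P2B and 0.958 in P2D. In A3 rows A to H, with 4 members, it was 6.34, and in A3 rows I to P, with 0 members, 3.71. The part of missing values in the result was not tested.

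The dye effect was the other measure read. The dye effect is 0.5 times the difference between the array with exposed RNA in Cy5 and the array with it in Cy3, averaged over exposures, and it would be 0 if both dyes gave the same ratio. Averages of arrays that enter it chose the members, and how far that choice shaped it was not tested. It passed at an adjusted p under 0.05 in limma in 72 of the 153 members tested for it (47.1%), fewer than the 56.5% of all 7351 features tested. By direction, 62 members (40.5%) had a positive effect, beside 32.3% of all features, and 10 members (6.54%) a negative one, beside 24.2%. In the 5 blocks 49 of 85 members passed, a share close to the 56.5% of all features. Outside them 12 of 16 members of a group described below passed, 7 of 42 other positive members and 4 of 10 negative members. The median effect was 0.35 over the members of the 5 blocks, 0.09 over that group and 0.05 over the other positive members. The median over all features was 0.02. The largest effects were those of A5M9 (0.92, adjusted p = 0.0124 in limma), A5M23 (0.89, adjusted p = 0.00227) and A5O1 (0.84, adjusted p = 0.0281), all in A5 rows I to P.

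The size of the dye difference varied between exposures. Over the positive members of the 5 blocks with both arrays, the median at downstream 2 exposure 1 was 1.91 with exposed RNA in Cy5 and 0.40 in Cy3, over 48 members. In exposure 2 it was 1.88 and 0.31, over 66 members, and in exposure 3 it was 0.21 and 0.16, over 63 members. The Cy5 array gave the higher value in 45 of the 48 members in exposure 1, in 62 of the 66 in exposure 2 and in 32 of the 63 in exposure 3. The averages of these downstream 2 arrays chose the members, so these counts are description. In upstream exposure 1, where these members were also high, the medians were 1.40 and 0.74. The dye difference was also large in exposures where the members were near 0 or negative. At downstream 1 exposure 2 the medians were 0.48 in Cy5 and -0.59 in Cy3, and at entry exposure 3 they were 0.03 and -1.30.

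Again the non-members of A5 rows I to P behaved alike in 2 exposures, with 2.30 and 0.48 at downstream 2 exposure 1 and 2.02 and 0.31 at exposure 2. At exposure 3 they differed from the members of the 5 blocks, with 0.20 in Cy5 and -0.08 in Cy3. There the Cy5 array was higher in 71 of 88 of them, beside 32 of 63 members. Positive members outside the 5 blocks had nearer values, 0.76 and 0.47 in exposure 1, 0.88 and 0.65 in exposure 2, and 0.32 and 0.33 in exposure 3. All 6 downstream 2 arrays were measured in 72 positive members and positive in 45 of them, and they were measured in 7 negative members and negative in 5. The part of the dye in the choice of members was not tested beyond the counts by dye orientation given among the limits at the end.

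**Figure D3:**
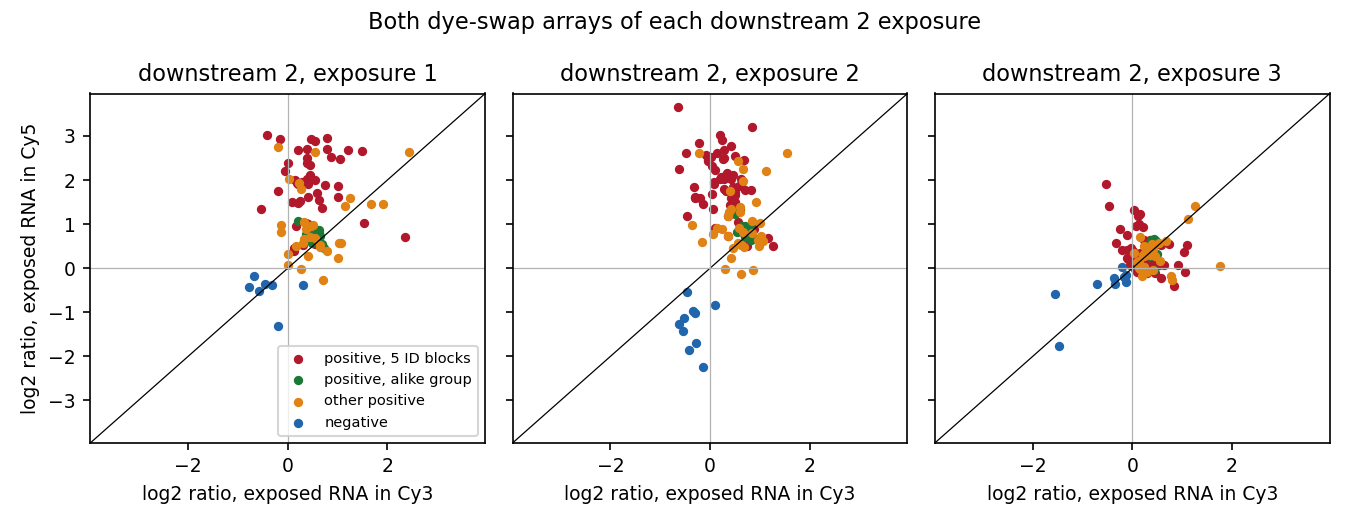
Log2 ratio of each member on the array with exposed RNA in Cy5 (vertical) against the array with it in Cy3 (horizontal), 1 panel per downstream 2 exposure, with the line of equal values. In exposures 1 and 2 members of the 5 blocks (red) sit far above the line, with medians of 1.91 against 0.40 and 1.88 against 0.31, and in exposure 3 they lie around it.

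A group of 16 positive members followed another course. Members were linked when their values over the 12 exposures correlated with Pearson's r of 0.95 or more, which put 53 members into 9 groups and left 102 unlinked. The largest group had 16 members with a median pairwise r of 0.951 and a lowest of 0.841. These r values include the exposures of the farthest downstream site, whose sign and mean size the rule had fixed. Over the 9 exposures of the other sites the median pairwise r of the group was 0.928 and the lowest 0.697. The rule had also limited the entry and downstream 1 means among these. The exposures of one site had water of the same site and all arrays the same kind of control, so these r values describe likeness in these arrays. The group spanned 13 blocks of codes, none of them among the 5. Its members lacked at most 1 array.

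In this group the downstream 2 medians were 0.62, 0.80 and 0.40, and all 16 were positive in each, as the rule required. Upstream exposure 2 was positive in all 16, with a median of 0.54, and upstream exposure 1 was negative in all 16, with a median of -0.36. Downstream 1 exposure 1 had a median of 0.50 and exposures 2 and 3 had -0.44 and -0.53. The group had no single upstream exposure 1 excess, and its downstream 1 mean was small (median -0.15), an average of exposures of opposite sign. The upstream means ran from -0.16 to 0.18, and none had an unadjusted p under 0.05 in limma. Of the 16, 2 passed at downstream 2, beside 6.66% of all features, in a test of values that the rule had used. They were P13BF1 with 0.59, 0.78 and 0.40 (adjusted p = 0.0283 in limma) and P7CE11 with 0.62, 0.73 and 0.37 (adjusted p = 0.0289 in limma). Both were named after their values were seen. A further 13 features outside the set had a median r of 0.9 or more with the group.

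The other 43 positive members spanned 29 blocks, with 6 of them in A6 rows I to P, and 5 of them were linked to members of 3 smaller groups of like course. Their exposure medians at downstream 2 were 0.71, 0.80 and 0.34, and at upstream 0.49, 0.15 and -0.09. Past the threshold at downstream 2 were 10 of these 43, 9 of the 85 in the 5 blocks and 2 of the group of 16, together the 21 positive members. Of all features 6.66% passed. The rule had used the values of that test, and nothing is read from these counts. Of the 43, 15 had an upstream mean of size 0.3 or more, as did 40 of the 85 in the 5 blocks and 0 of the group of 16.

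**Figure D4:**
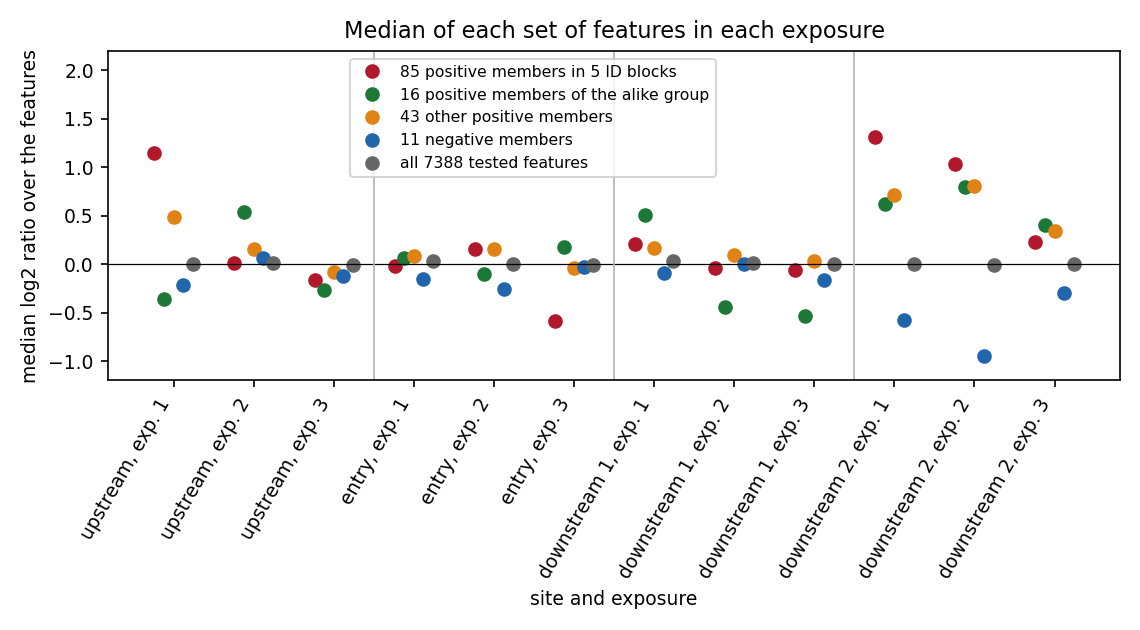
Median log2 ratio (vertical axis) in each of the 12 exposures (horizontal axis, "exp." for exposure) over the 85 positive members in 5 code blocks, the group of 16 alike members, the 43 other positive members, the 11 negative members and all 7388 tested features. The 85 members are high in upstream exposure 1 (1.15) as well as downstream 2 exposures 1 and 2 (1.31 and 1.04), while the group of 16 is at -0.36 in upstream exposure 1.

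Likeness was also looked up for the largest member of each sign. The features most like A7N22 over the exposures measured in both were A6P4 (r = 0.941 over 10 exposures), P1BA4 (0.932 over 11) and P2BA10 (0.928 over 11). A6P4 and P1BA4 were members, and P2BA10 missed the set through an entry mean of -0.36. Those most like P13BH10 over 12 exposures were A7A23 (r = 0.863), P9AG10 (0.814) and A7K2 (0.799), none of them a member. Their downstream 2 means of -0.02, -0.16 and -0.15 were far smaller than the -1.0 of P13BH10.

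The rule was then applied with 1 downstream 2 exposure held out, and the held-out exposure was read in the features so chosen. With exposure 1 held out, 128 features were chosen and 83.6% had the same sign in it, with a median of 0.59 turned to the chosen direction. With exposure 2 held out, 162 were chosen and 66% had the same sign, with a median of 0.38. With exposure 3 held out, 333 were chosen and 57.7% had the same sign, with a median of 0.06.

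Over all features with 3 measured exposures the held-out exposure shared the sign of the mean of the other 2 in 59.9%, 60.8% and 65.0%. Features chosen by downstream 2 alone that had entry or downstream 1 means of 0.3 or more shared it in 91.7%, 83.5% and 88.3%. Turned likewise, the medians over all features were 0.06, 0.09 and 0.06. The share for the features chosen by the rule was below that of features chosen by downstream 2 alone in all 3 exposures. It was above that of all features for exposures 1 and 2 and below it for exposure 3. With each array centred by code block the share for exposure 2 was also below, at 57.1% against 61.0% of all features, while that for exposure 1 was 80.6% against 62.2%. Features are not independent of each other, and these shares carry no test.

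The limits of the rule cut through a continuum. The 2 positive members nearest the size limit, P11BH12 and A7L24, had downstream 2 means of 0.502 and 0.503, and the 2 nearest features outside it, P2DH6 and P2AB10, had 0.498 and 0.497. On the negative side P11DA10 and P3BA4 had -0.501 and -0.504, and P11AG7 and A2O24 outside had -0.486 each. At the 0.3 limit, A7O19 and A5O12 were members with entry means of -0.300 and -0.296, and A3H14 and A5M22 were left out with entry means of 0.301 and -0.303 although their downstream 2 means were 0.82 and 1.65.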

How the data were processed

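The authors deposited one value per feature and array in a series table, taken here as log2 ratios already turned to one direction; the scale, centring and dye handling behind these deposited log2 values are stated in no source used here. Deposited array medians ran from -0.04 to 0.03. Arrays were centred on their medians, dye-swap pairs averaged, and features with 2 or more exposures at each of the 4 sites kept. Missing values (2.71% to 8.66% per array) were not imputed; an exposure with 1 array kept that array's value. limma 3.58.1 (R 4.3.3) fitted site means on 12 exposures with Benjamini-Hochberg adjustment over all tested features at 0.05; the fit was checked on simulated data. Python 3.11.15 with pandas 2.3.3 did the rest. Members, lists and named features were chosen with earlier results of these data known. Named features are the 8 largest means of each sign measured in 3 exposures, the 4 lowest downstream 2 p and the 3 lowest upstream p of each sign, the 3 largest dye effects, features at the limits and those most alike. Exposure numbers were taken to pair upstream with downstream 2, since same-numbered deviations from the site means correlated in all 3 pairs (r of 0.434, 0.474 and 0.248 over all features), as the labels give no pairing. Entry and downstream 1 correlated likewise (0.525, 0.518 and 0.404), while pairs across these 2 sets reached -0.600, so a block over all 12 exposures joins numbers that do not all run together.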

Additional observations from a re-analysis of the deposited data

Results flagged for a closer look

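In 2 of the named members every upstream exposure lay on the side of 0 opposite to every downstream 2 exposure. Over all 155 members this held in 6, of which 4 were positive and 2 negative at downstream 2. It was not counted over all features, and the rule had fixed the single sign at downstream 2. P13BH10 was positive in 3 of 3 upstream and negative in 3 of 3 downstream 2 exposures, a downstream 2 minus upstream difference of -1.35 (adjusted p = 0.128 in limma). A6I8 showed the same signs, with a difference of -1.22 (adjusted p = 0.192 in limma). Neither difference passed the test. Groups of 3 exposures were not searched for single outlying values.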

How the results depend on the processing

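The number of members, 155, became 54 from arrays with exposed RNA in Cy3 alone, 103 with both arrays required, 82 with a downstream 2 limit of 0.7, 85 with a limit of 0.2 on entry and downstream 1, 95 with the upstream mean also under 0.3, and, added after the data were seen, 13 with every entry and downstream 1 exposure under 0.3 and 70 outside the 5 code blocks. From Cy5 arrays alone it was 132, of which 54 were members of the set, and 20 of the 54 from Cy3 were. Leaving out 1 exposure gave between 98 (entry exposure 2) and 343 (downstream 2 exposure 3). Members past the threshold against the control at downstream 2, 23, became 52 with all 24 arrays (33.5%, beside 10.6% of all features), 45 in Cy5 alone (36.6%, beside 11.9%), 10 in Cy3 alone (8.70%, beside 9.63%), 0 in a fit of its 3 exposures only (102 had an unadjusted p under 0.05) and 38 with the replicate block (24.5%, beside 7.27%), and between 2 and 42 without 1 exposure (3 without exposure 1, 2 without exposure 2, 42 without exposure 3). Against upstream, 0 became 3 with all 24 arrays (1.94%, beside 6.00% of all features) and 3 in Cy5 alone (2.44%, beside 2.24%). It was 1 with the replicate block over all 12 exposures (0.645%, beside 1.35%) and stayed at 0 with the block on those sites alone. Without 1 exposure it was between 0 and 2, with 2 without downstream 2 exposure 3 (1.29%, beside 0.812%). The upstream mean itself gave 1 member in Cy5 alone (A6P20, 1.34, adjusted p = 0.0471 in limma) and 0 otherwise. That was 0.813% of the members in Cy5 alone, beside 2.33% of all features. With each array centred by code block, chosen after the data were seen, 138 features met the rule, 88 of them members, and the held-out share for exposure 2 was 57.1%, below the 61.0% of all features under that centring. None of the 29 values of members recomputed singly (downstream 2, upstream or dye effect) changed sign in any alternative fitted. The rule had fixed the sign of the downstream 2 values, and the others were picked for a low p or a large size. This steadiness of sign was thus largely set in advance, and nothing is read from it. The numbers differ in part because fewer features and exposures enter; other causes were not tested. Exposure pools limit the precision, and spot intensities were not used here.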
